A study of Mus musculus with 12 samples.

Results

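Autophagy genes encode the proteins that enclose cytoplasm in a double membrane and deliver it to the lysosome. The list comprised 35 genes of 55413 annotated genes outside the mitochondrial genome, given as a list of gene symbols, and each was read at its transcription start site (TSS) and in its gene body. H4K12ac ChIP-Seq, which maps acetylation of lysine 12 of histone H4, was carried out on neuronal nuclei sorted from whole hippocampi, with 5 *Tip60* cKO mice and 5 control mice. Each library is a separate sample of its group, and p-values measure the spread between these samples. *Tip60* cKO mice were homozygous for a floxed allele of *Tip60* (*Kat5*), a histone acetyltransferase, and carried the tamoxifen-inducible *CaMKCreERT2* transgene. This driver acts in excitatory forebrain neurons, so interneurons, progenitors and glia retain TIP60. Control mice carried the floxed alleles without the driver, and both genotypes received tamoxifen. The nuclei were taken 10 days after the last injection, and the labels give male C57BL/6J mice of 3 months of age, while the methods of the study name either sex and a C57BL/6 N background. Input chromatin was pooled into 1 library per genotype, so the p-values do not cover variation of the input.

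Autophagy begins when the ULK1 kinase complex activates a phosphatidylinositol 3-kinase (PI3K) complex on the growing membrane. Lipid is supplied by ATG9 vesicles and ATG2 bridges, and a pair of ubiquitin-like conjugation reactions attach Atg8 proteins (the LC3 and GABARAP families) to the membrane. ATG4 proteases prepare and recycle the Atg8 proteins, cargo receptors such as p62 bind them, and TFEB is the transcription factor best known for driving autophagy and lysosome genes. Neurons depend on this pathway throughout life because they cannot dilute damaged proteins and organelles by dividing.

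The libraries held 22864189 to 37923809 tags, from which 64245 to 136409 peaks were called. The lists of *Tip60* cKO mice covered 43.8 ± 14.0 Mb and those of control mice 56.4 ± 10.7 Mb (SD, n = 5). Replicate 5 of *Tip60* cKO had the fewest tags and the shortest list. All 5 pan-neuronal markers had a TSS peak in all 10 lists, as did 4 of 5 excitatory neuron markers, 0 of 3 inhibitory neuron markers, 0 of 4 astrocyte, 0 of 5 microglia, 0 of 4 endothelial and 1 of 4 oligodendrocyte markers. *Kat5* itself had a peak in each list, with a mean rank score of 94.8 ± 5.07 in *Tip60* cKO against 97.6 ± 2.08 in control mice. Where this peak lies relative to the floxed segment was not examined. A peak reports all nuclei of a sample together, so fewer acetylated nuclei and less acetylation per nucleus cannot be told apart.

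The sequences of 6 promoters are shown because these members carry the calls described later, or in the case of *Atg3* a peak coverage without overlap between the genotypes. They are the 250 bases before the RefSeq start (GRCm38.p6), 5′ to 3′ on the strand of the gene. Capitals mark CACGTG, the E-box that TFEB-type factors recognise, and CCAAT or ATTGG, the CCAAT box on either strand.
*Gabarap* (chr11:69991120-69991369, plus strand): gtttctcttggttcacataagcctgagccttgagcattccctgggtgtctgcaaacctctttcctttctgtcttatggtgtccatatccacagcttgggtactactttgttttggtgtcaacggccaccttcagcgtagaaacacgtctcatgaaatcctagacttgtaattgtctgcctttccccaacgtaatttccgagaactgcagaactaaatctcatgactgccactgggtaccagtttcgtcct
*Atg4c* (chr4:99193684-99193933, plus strand): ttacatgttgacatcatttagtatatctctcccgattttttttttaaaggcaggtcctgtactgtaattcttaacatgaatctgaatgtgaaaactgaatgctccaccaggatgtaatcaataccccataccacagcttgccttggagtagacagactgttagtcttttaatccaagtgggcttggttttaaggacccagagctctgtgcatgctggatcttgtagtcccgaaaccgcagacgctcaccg
*Pik3r4* (chr9:105642745-105642994, plus strand): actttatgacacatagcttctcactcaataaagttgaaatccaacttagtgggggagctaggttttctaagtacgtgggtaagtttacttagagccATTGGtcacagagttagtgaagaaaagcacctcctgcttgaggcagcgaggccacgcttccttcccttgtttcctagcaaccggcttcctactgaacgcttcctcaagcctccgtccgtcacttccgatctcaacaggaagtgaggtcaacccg
*Atg2a* (chr19:6241418-6241667, plus strand): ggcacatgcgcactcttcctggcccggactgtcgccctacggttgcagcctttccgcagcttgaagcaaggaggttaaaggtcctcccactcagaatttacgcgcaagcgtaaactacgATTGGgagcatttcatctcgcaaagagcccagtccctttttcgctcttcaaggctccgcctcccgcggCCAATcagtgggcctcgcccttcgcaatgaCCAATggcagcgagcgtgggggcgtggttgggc
*Atg7* (chr6:114670846-114671095, plus strand): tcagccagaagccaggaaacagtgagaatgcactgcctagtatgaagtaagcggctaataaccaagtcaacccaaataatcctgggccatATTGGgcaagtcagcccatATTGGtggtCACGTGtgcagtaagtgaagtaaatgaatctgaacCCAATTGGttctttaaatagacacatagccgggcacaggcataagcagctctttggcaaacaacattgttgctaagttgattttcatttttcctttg
*Atg3* (chr16:45158579-45158828, plus strand): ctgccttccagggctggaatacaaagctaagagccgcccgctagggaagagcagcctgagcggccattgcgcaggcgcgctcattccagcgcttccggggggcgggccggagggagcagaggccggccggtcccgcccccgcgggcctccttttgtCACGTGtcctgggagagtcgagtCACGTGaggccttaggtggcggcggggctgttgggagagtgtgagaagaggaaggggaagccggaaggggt

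RefSeq promoters were found for 29 of the 35 members. *Rb1cc1*, *Becn1*, *Pik3c3*, *Atg12*, *Atg16l1* and *Map1lc3a* had none in the table used. Of the 29, CACGTG was found in 3 (*Atg3*, *Atg5* and *Atg7*), against 6.02% of 32851 promoters of the same length. CCAAT or ATTGG was found in 8 members, against 33.8% of all promoters. The members held a median of 15 CG dinucleotides per 250 bases, against 6 over all promoters. Among the 6 shown, the promoters of *Atg7*, *Atg4c* and *Gabarap* had few of them (3, 5 and 6), while *Atg3* had 21. The RefSeq start of *Atg7* lies 27999 bp downstream of the annotated gene start used for the TSS window, inside the gene body. That of *Gabarap* lies 227 bp downstream of its annotated gene start, so most of the bases shown for it lie after that start.

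Each gene received a TSS rank score in each mouse from its strongest peak within 2 kb of the TSS. The score was the percentile of this peak's fold enrichment over the input among all annotated genes, or 0 without a listed peak. Genes without a peak formed the majority and ranked lowest, so even the weakest listed peak scored far above 0. Most autophagy genes carried H4K12ac at their TSS in both genotypes. In the 10 lists, 29 to 33 of the 35 members had a peak, and 29 members had one in every list, whereas 44.0% of all protein-coding genes did. The strongest peak of a member had its summit downstream of the TSS in 76.7% of 313 cases, at a median of 230 bp. The coverage of the members by peaks dipped in the 100 bp before the TSS (32.1 ± 5.94% of bases in control and 25.9 ± 7.65% in *Tip60* cKO mice) and was highest 200 to 299 bp downstream. There 80.3 ± 4.39% of bases were inside a peak in control and 73.5 ± 7.24% in *Tip60* cKO mice (SD, n = 5). Over all genes tested the same bin held 56.1 ± 2.79% and 49.1 ± 6.68%. The mean of *Tip60* cKO mice thus lay below that of control mice in this bin in the members and in all genes, while the mice overlapped.

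**Figure D1:**
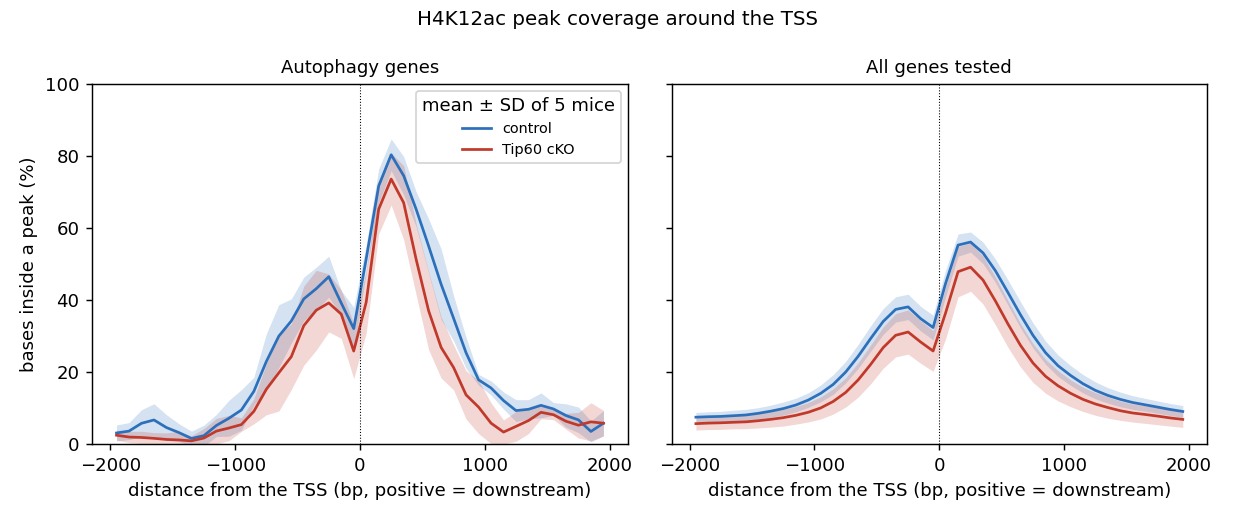
Share of bases inside an H4K12ac peak in bins of 100 bp around the TSS, for the autophagy genes (left) and all genes tested (right). Lines are the mean of 5 mice and bands the SD; both panels show a dip just before the TSS, a maximum 200 to 299 bp downstream and the *Tip60* cKO line under the control line there.

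In control mice the highest TSS rank scores belonged to *Sqstm1*, which encodes the cargo receptor p62 (97.2 ± 2.41), and *Map1lc3a*, an LC3 protein (96.3 ± 1.41). *Atg10*, the E2-like enzyme of the ATG12 conjugation, and *Ulk2*, a kinase of the initiation complex, followed at 94.2 ± 5.59 and 92.7 ± 5.74. The TSS of the neighbour *Mgat4b* lies at -63 bp from that of *Sqstm1*, so these 2 genes cannot be told apart. Among the members with a peak in every list the lowest were *Pik3r4* (71.3 ± 3.27), the regulatory subunit of the PI3K complex, *Atg2a* (72.5 ± 5.55), a lipid transfer protein, and *Tfeb* (76.0 ± 5.39). Neighbours in this order did not differ beyond their spread: in none of the 34 neighbouring pairs was the difference larger than the larger of the 2 SDs. At the top, the rank scores of *Sqstm1* were 98.7, 95.1, 98.6, 97.9 and 99.4 in *Tip60* cKO against 98.6, 93.5, 98.5, 96.1 and 99.4 in control mice, and those of *Map1lc3a* 99.6, 95.9, 99.4, 95.4 and 99.1 against 97.7, 94.7, 97.5, 96.8 and 94.9. The genotypes overlapped at both genes.

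The same was read at further genes from the upper or lower end of each role's order. *Ulk2* had 97.3, 95.9, 96.2, 95.4 and 85.7 in *Tip60* cKO against 97.0, 93.2, 93.3, 97.0 and 83.0 in control mice. *Uvrag*, a partner of beclin 1 in the PI3K complex, had 95.6, 94.1, 90.2, 94.6 and 93.1 against 98.0, 96.9, 94.4, 84.9 and 80.4. The lowest 2 control values of *Uvrag* were those of lane 8, which held replicates 4 and 5 of each genotype. *Atg2b*, a lipid transfer protein like ATG2A, had 79.3, 84.2, 85.5, 87.3 and 84.7 against 92.8, 86.9, 84.8, 91.9 and 82.9. Its TSS has that of the protein-coding gene *Gskip* at 382 bp. *Atg10* had 97.0, 95.5, 98.7, 97.4 and 90.3 against 86.6, 89.9, 97.6, 98.3 and 98.7. The genotypes overlapped at all of these genes. *Atg7*, the E1-like enzyme of both conjugations, had 83.0, 83.4, 72.6, 76.3 and 78.2 against 71.2, 78.4, 92.1, 71.3 and 77.8. *Atg4d*, an ATG4 protease, had 93.1, 79.8, 84.6, 80.0 and 83.5 against 85.5, 83.7, 91.9, 93.0 and 85.4. *Gabarapl2*, an Atg8 protein, had 86.2, 82.5, 94.2, 82.5 and 84.7 against 81.1, 84.6, 81.8, 79.9 and 86.4. *Tfeb* had 80.7, 76.6, 78.1, 72.5 and 79.6 against 78.8, 72.2, 70.9, 84.0 and 74.0. The mice of both genotypes overlapped at each of these 4 genes as well.

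**Figure D2:**
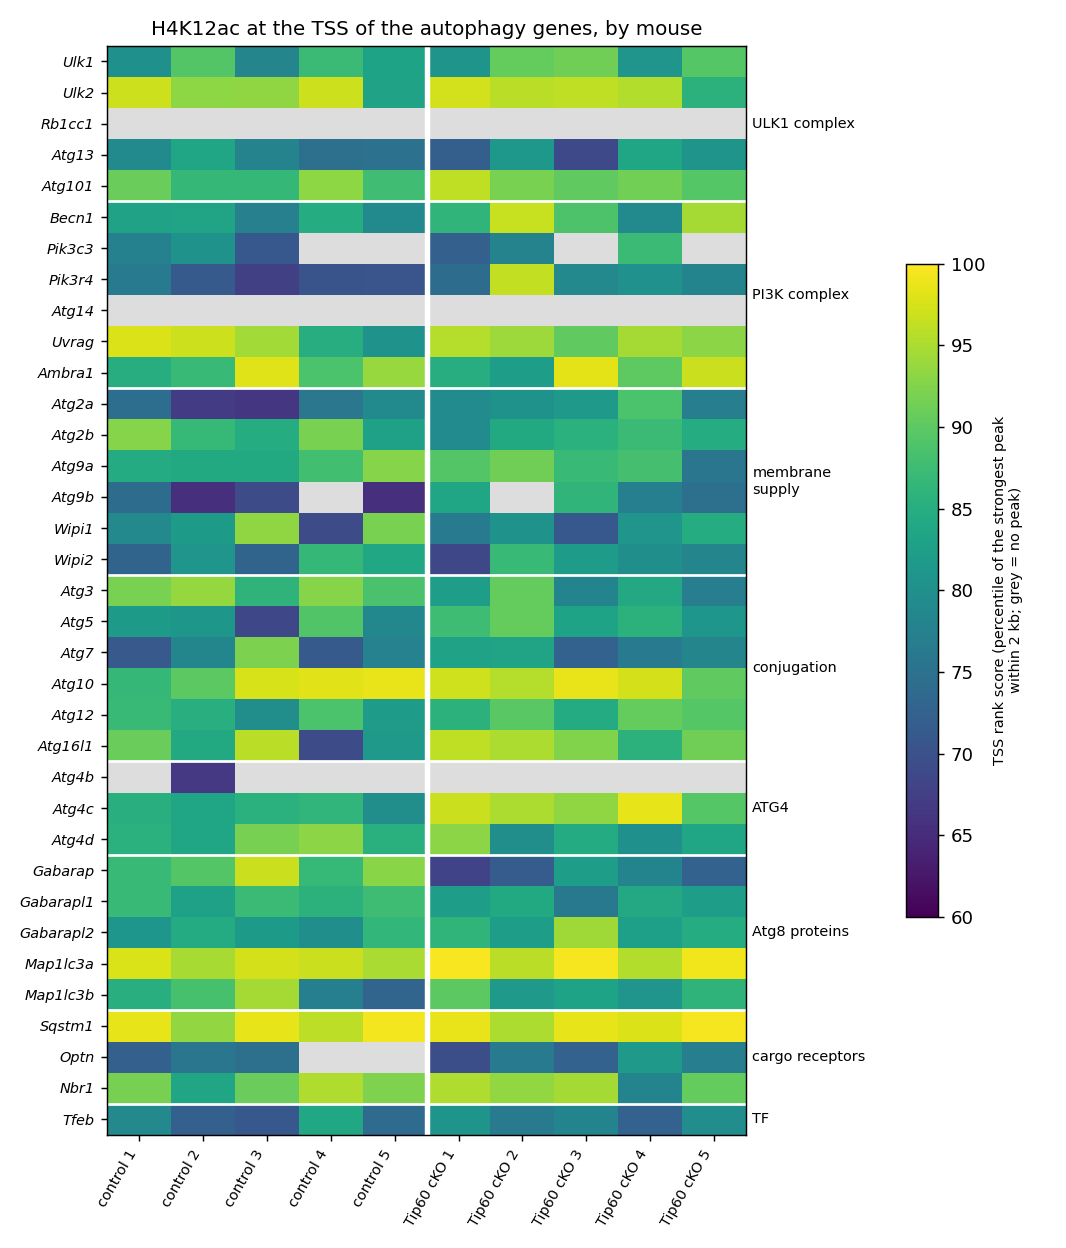
TSS rank score of each autophagy gene (rows, grouped by role) in each mouse (columns, 5 control and 5 *Tip60* cKO). Grey cells have no peak within 2 kb; *Rb1cc1* and *Atg14* are grey in all 10 mice, *Sqstm1* and *Map1lc3a* are near 100 in both genotypes, and *Gabarap* is lower and *Atg4c* higher in every *Tip60* cKO mouse.

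Of the members, 6 had no TSS peak in 1 or more lists. *Rb1cc1*, the scaffold of the ULK1 complex, and *Atg14*, which directs the PI3K complex to autophagosomes, had no peak at the annotated gene start in any list, and *Atg4b*, the main LC3 protease, had one only in control replicate 2. All 3, and also *Atg9b*, had a peak in every list when all annotated transcript starts were used. For *Atg14* and *Atg4b* the RefSeq start lies 2215 and 3405 bp downstream of the gene start, and a peak within 2 kb of it was listed in all 10 mice, with mean fold enrichments of 4.94 and 5.77 in *Tip60* cKO against 4.80 and 6.39 in control mice. Peaks of these genes were thus listed at a start inside the gene, and at the annotated gene start only for *Atg4b* in that 1 mouse. *Pik3c3*, the catalytic PI3K subunit, had a peak in 6 lists, 3 of each genotype. Its rank scores were 72.2, 77.9, 0, 87.3 and 0 in *Tip60* cKO against 77.6, 80.4, 70.9, 0 and 0 in control mice. *Atg9b*, the second ATG9 gene, had a peak in 8 lists. Its rank scores were 83.6, 0, 86.1, 77.3 and 74.8 in *Tip60* cKO against 74.2, 65.5, 69.3, 0 and 65.4 in control mice. The summits lay at -1935 to -634 bp, and the TSS of the neighbour *Abcb8* lies at -1520 bp, so the 2 genes cannot be told apart.

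*Optn*, which encodes the receptor optineurin used in mitophagy, had a peak in all 5 *Tip60* cKO lists and in 3 of 5 control lists. Its rank scores were 69.7, 76.6, 72.6, 81.7 and 77.1 in *Tip60* cKO against 72.2, 75.7, 74.7, 0 and 0 in control mice. The groups overlapped wherever a peak was listed. Both control mice without a peak were sequenced on lane 8. Within lane 7 the rank scores of the genotypes overlapped.

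The question of the comparison was whether H4K12ac at these genes differed between the neuronal nuclei of *Tip60* cKO and control mice. The rank score places a gene among the other genes of its library, so a change shared by all genes does not appear in it. By immunofluorescence the paper reported a lower H4K12ac signal in TIP60-deficient CA1 nuclei. For the TSS rank score 32 members passed the filter of a peak in at least 2 lists, and limma called 0 of them at an adjusted p below 0.05 (Benjamini-Hochberg over all genes), against 0.235% of all 21672 genes tested (0.157% lower and 0.0784% higher). At an unadjusted p below 0.05 there were 5 members, *Gabarap* and *Atg3* lower and *Atg4c*, *Pik3r4* and *Atg2a* higher in *Tip60* cKO; over all genes 11.8% passed this threshold. The median difference of the members was 1.51 rank points and that of all genes -0.69. The former was 0.98 without control replicate 5, 2.20 without *Tip60* cKO replicate 5 and 0.61 when peaks were ranked by pileup. The mean was lower in *Tip60* cKO at 11 of the 32 members and at 55.6% of all genes. The mice did not overlap at *Gabarap*, the only such member with lower scores (1.62% of all genes), and at *Atg4c*, the only one with higher scores (1.93%).

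Because percentiles are compressed among strong peaks, the fold enrichment of the strongest TSS peak was also compared on the log2 scale. It was taken relative to the library's median over genes with a peak in all 10 lists, so a change shared by all genes is again left out. Of 29 members tested, limma called 4: *Gabarap* was lower, and *Atg4c*, *Pik3r4* and *Atg2a* were higher in *Tip60* cKO. Over all 13004 genes 3.57% were called, 0.792% lower and 2.78% higher. The mice did not overlap at *Gabarap* among genes with lower values (1.19% of all genes) and at *Atg4c* and *Pik3r4* among those with higher values (3.16%). The median difference was 0.07 over the members (0.06 to 0.11 without single mice, the highest without control replicate 5) and 0.02 over all genes, and 7 of 29 members and 45.6% of all genes had a lower mean. None of the 4 calls was made when the height of the peak (pileup) replaced fold enrichment, a setting that left 1 lower and 16 higher calls among all genes, compared with 103 and 361. The level of the input is therefore given beside each gene.

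*Gabarap* encodes the GABARAP protein, an Atg8 protein that binds cargo receptors on the autophagosome membrane (chr11:69991143-69994951, plus strand). Its fold enrichment was 3.08, 3.45, 4.69, 4.28 and 3.07 in the *Tip60* cKO mice against 6.14, 6.50, 8.85, 5.85 and 6.95 in the control mice. All *Tip60* cKO mice lay below all control mice. The relative fold enrichment differed by -0.71 ± 0.15 (log2, SE; adjusted p 0.00501 by limma), and the adjusted p ranged from 0.00302 to 0.677 over the alternatives. The TSS rank score was 74.5 ± 5.57 against 90.6 ± 4.24 (adjusted p 0.112). In all 5 control mice the summit of the strongest peak lay 640 to 778 bp downstream of the TSS, but in *Tip60* cKO mice it lay at -448, 59, 87, 648 and 710 bp. The strongest peak was 213 to 407 bp long in *Tip60* cKO against 418 to 1030 bp in control mice. The pileup was 14 to 26 in *Tip60* cKO against 22 to 38 in control mice. Relative to the library the pileup differed by -0.18 ± 0.14 (log2, SE; adjusted p 0.677 by limma). The input background at the peak, as a multiple of the genome-wide level of that library, was 1, 1.69, 1.21, 1.53 and 1.81 in *Tip60* cKO against 1 to 1.004 in control mice. Its part in the difference was not tested.

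*Atg4c* encodes a protease of Atg8 proteins (chr4:99193934-99259787, plus strand). Its fold enrichment was 7.81, 6.61, 6.57, 8.50 and 5.40 in *Tip60* cKO against 5.74, 5.40, 6.06, 5.69 and 4.77 in control mice. Relative to the library the *Tip60* cKO values lay at 0.08 to 0.59 (log2) and the control values at -0.32 to -0.07, without overlap. The difference was 0.51 ± 0.14 (log2, SE; adjusted p 0.0277 by limma). TSS rank scores did not overlap either, with 94.6 ± 3.52 in *Tip60* cKO against 84.1 ± 2.61 in control mice (adjusted p 0.112). The pileup was 17 to 37 and 29 to 35, and its relative difference was 0.13 ± 0.13 (log2, SE; adjusted p 0.776 by limma). The input background was at the genome-wide level in every *Tip60* cKO library and at 1.35 to 1.47 times it in the control libraries. The groups were thus separate in the input and overlapped in the height of the peak. The call was kept in 5 of the 10 fits without a single mouse, and lost without replicate 1, 2 or 4 of *Tip60* cKO or replicate 2 or 5 of control (0.44 to 0.55 over the 10).

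*Pik3r4* encodes the regulatory subunit VPS15 of the PI3K complex (chr9:105642978-105687657, plus strand). Its fold enrichment was 3.87, 6.87, 4.21, 4.64 and 3.98 in *Tip60* cKO against 4.25, 3.503, 3.13, 3.35 and 3.48 in control mice. Replicate 2 of *Tip60* cKO stood above the other 9 mice, and the other values overlapped before the library's median was taken out. The relative difference was 0.57 ± 0.15 (log2, SE; adjusted p 0.0278 by limma). The pileup was 13 to 31 and 17 to 29, with a relative difference of 0.07 ± 0.15 (log2, SE; adjusted p 0.912 by limma). The input background was 1.03 to 1.12 in *Tip60* cKO against 1.4997 to 1.93 in control libraries. After the library's median was taken out, the lowest *Tip60* cKO value was -0.57 and the highest control value -0.58 (log2), so the groups only just failed to overlap. The call was kept in 4 of the 10 fits without a single mouse, and lost without replicate 2, 4 or 5 of *Tip60* cKO or replicate 2, 3 or 4 of control (0.41 to 0.65 over the 10).

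*Atg2a* encodes a protein that transfers lipid to the growing membrane (chr19:6241668-6262335, plus strand). Its fold enrichment was 4.52, 4.41, 4.60, 5.82 and 3.90 in *Tip60* cKO against 3.99, 2.90, 2.62, 4.09 and 4.65 in control mice, and the groups overlapped. The relative difference was 0.56 ± 0.16 (log2, SE; adjusted p 0.0369 by limma), and its pileup counterpart was 0.19 ± 0.15 (adjusted p 0.680). The input background was at the genome-wide level in every *Tip60* cKO library and at 1.011 to 2.12 times it in control libraries. The call was kept in 3 of the 10 fits without a single mouse, those without replicate 1, 4 or 5 of control (0.43 to 0.66 over the 10). The 3 genes called higher thus all had a higher input background in the control libraries, and its part in their differences was not tested.

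**Figure D3:**
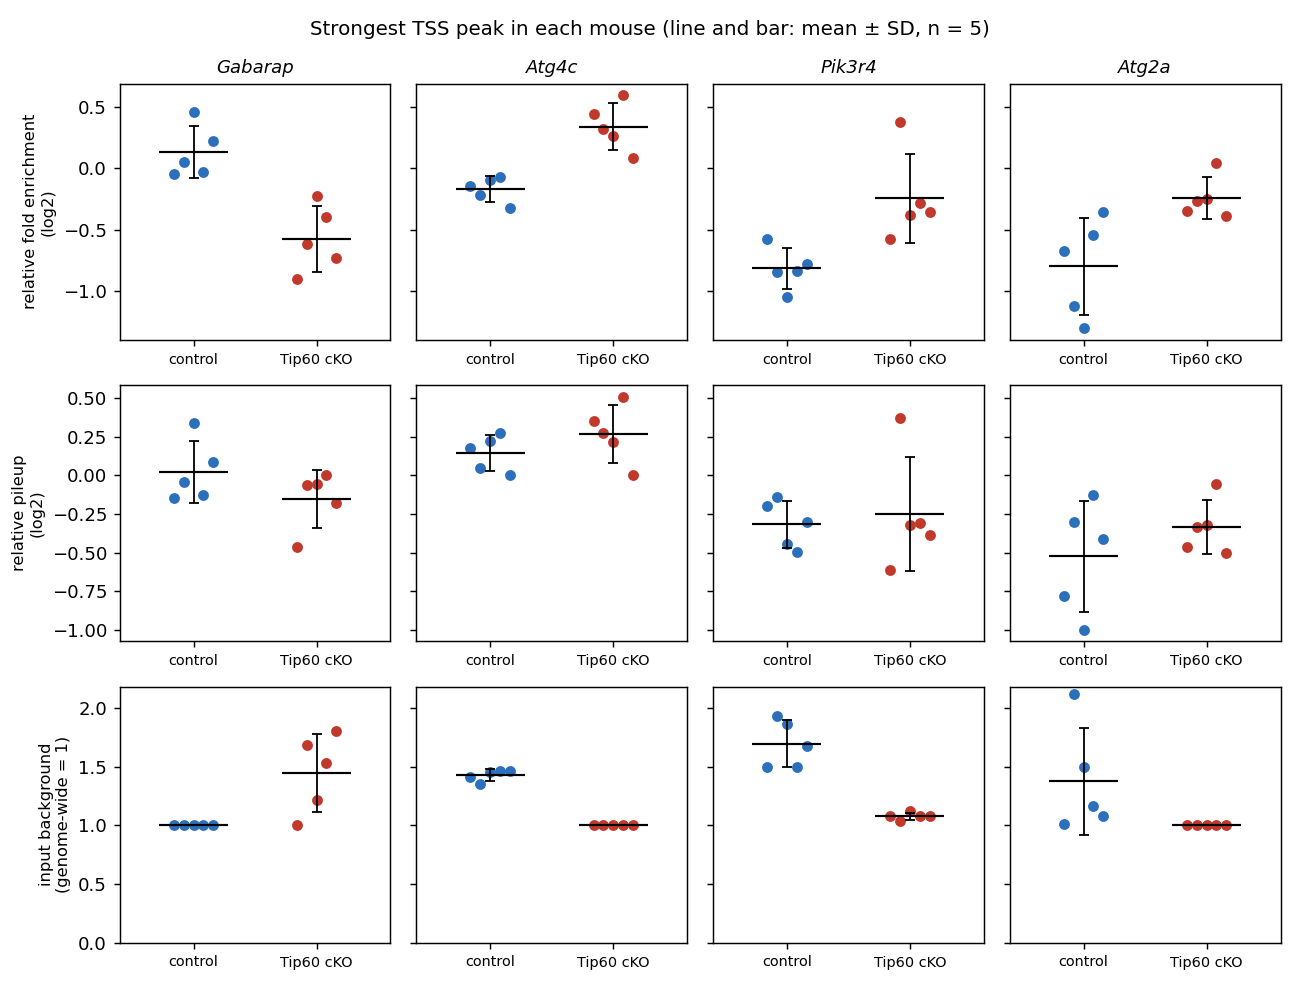
Relative fold enrichment (log2, top), relative pileup (log2, middle) and input background as a multiple of the genome-wide level (bottom) of the strongest TSS peak at the 4 called members, 1 point per mouse with mean ± SD. The genotypes separate in fold enrichment at *Gabarap*, *Atg4c* and *Pik3r4*, overlap in pileup at all 4, and differ in background in the opposite direction to fold enrichment.

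The input differed between the genotypes beyond these genes. In control libraries 27.4 to 34.5% of peaks, and in *Tip60* cKO libraries 45.3 to 57.8%, were scored against the genome-wide background, the rest against a higher local level. Since all libraries of a genotype share 1 input, this difference has no replicate, and the p-values of fold enrichment do not cover it. Across the 29 members the log2 ratio of background between the genotypes had a Pearson correlation of -0.77 with the difference in fold enrichment, and across all 13004 genes of -0.61. This describes genes, which are not independent replicates, and background is a term of fold enrichment itself. The background was lower in *Tip60* cKO at 67.0% of all genes tested and 72.4% of the members, compared with 96.4% of all genes called higher and 8.74% of those called lower.

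**Figure D4:**
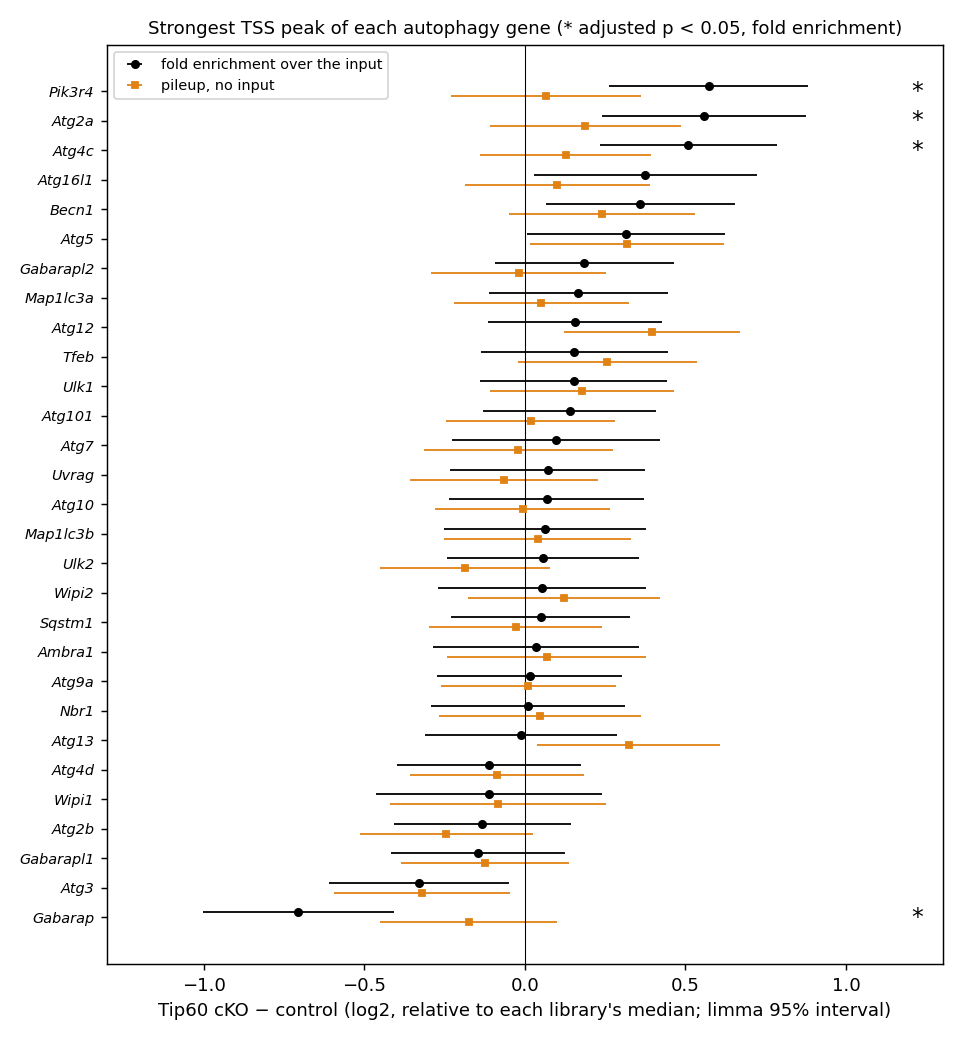
Difference between *Tip60* cKO and control at the strongest TSS peak of the 29 members tested, as relative fold enrichment (black) and relative pileup (orange), log2 with the 95% interval of limma. The 4 stars mark adjusted p below 0.05 for fold enrichment; the pileup differences of these 4 genes are between -0.18 and 0.19.

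By pileup, the member with the smallest p was *Atg12*, the ubiquitin-like protein that is joined to ATG5. Its relative pileup was 0.40 ± 0.14 higher in *Tip60* cKO (log2, SE; unadjusted p 0.00575, adjusted p 0.234 by limma). The TSS of its neighbour *Ap3s1* lies at -296 bp. *Atg13*, an ULK1 complex subunit, and *Atg3*, the E2-like enzyme for Atg8 proteins, differed by 0.32 ± 0.14 and -0.32 ± 0.14 (adjusted p 0.375 and 0.364), and *Atg5*, which is joined to ATG12, by 0.32 ± 0.15 (adjusted p 0.419 by limma). The TSS of *Harbi1* lies at -276 bp from that of *Atg13*. Of these members, *Atg3* had the same sign by every TSS measure. Its rank score was 82.4 ± 5.41 in *Tip60* cKO against 90.6 ± 3.20 in control mice (adjusted p 0.347), and its relative fold enrichment differed by -0.33 ± 0.14 (log2, SE; adjusted p 0.198 by limma). The TSS of *Slc35a5* lies at -79 bp from that of *Atg3*, and the 2 genes cannot be told apart in a window of 2 kb. A protein-coding neighbour with a TSS within 2 kb was found for 8 members.

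Next to the strongest peak, the length of DNA inside peaks was compared as TSS coverage, the percentage of the 4 kb window. The mean was lower in *Tip60* cKO at 30 of the 32 members, with a median difference of -6.17 percentage points. Over all genes 81% were lower, with a median of -4.01. The peak lists of *Tip60* cKO mice were shorter on average, although the lists of the genotypes overlapped in length. When each library was reduced to an equal number of peaks, which does not match their length, the median of the members was -4.14. Over all genes 700 were called lower and 34 higher of 19377 at this setting, and the median over all genes is not given here. limma called 0 of the 32 members (1.56% of all genes), with 9 at an unadjusted p below 0.05 (23.2%). *Ulk1*, the initiating kinase, had the smallest adjusted p among the members (0.0637). Its coverage was 23.6, 6.55, 8.77, 6.37 and 9.998% in *Tip60* cKO against 19.8, 28.8, 30.1, 21.1 and 28.9% in control mice. Replicate 1 of *Tip60* cKO alone lay among the control mice, and without it limma called *Ulk1*, *Atg3*, *Gabarap* and *Map1lc3b* lower (adjusted p 0.0165, 0.0440, 0.0365 and 0.0410). Over all genes that fit called 1405 lower and 11 higher of 21293, against 331 and 8 with all mice. In the other direction, the fit without control replicate 5 called 39 lower and 1 higher of 21349. *Ulk1* was not lower in rank score, with 86.6 ± 5.34 against 83.6 ± 4.67.

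The mice did not overlap in TSS coverage at 3 members with lower values (5.23% of all genes) and 1 with higher values (0.157%). *Atg3* had 24.7, 20.5, 13.8, 23.3 and 4.77% in *Tip60* cKO against 27.8, 34.99, 27.7, 31.8 and 30.5% in control mice. *Atg4d* had 18.9, 21.5, 9.27, 29.8 and 13.5% against 31.6, 32.2, 32.2, 30.7 and 30.9%. The control mice of *Atg4d* lay between 30.7 and 32.2%, while the *Tip60* cKO mice were spread widely. *Gabarapl1*, the Atg8 protein closest to GABARAP, had 25.5, 21.8, 25.6, 26.5 and 16.9% against 26.6, 32.6, 29.6, 28.5 and 37.5%. *Optn* was the member with more coverage, with 14.3, 13.7, 9.52, 12.5 and 8.22% in *Tip60* cKO against 5.75, 6.05, 6.55, 0 and 0% in control mice. *Ambra1* was the other member whose mean coverage was not lower. Adjusted p-values of these 4 genes were 0.0821, 0.0719, 0.144 and 0.0950 by limma. *Gabarap* had 13.4 ± 8.67% and 30.3 ± 9.62% (adjusted p 0.0971), and replicate 1 of *Tip60* cKO overlapped with the control mice.

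The gene body was the transcribed region from 2 kb downstream of the TSS to the gene end, read in genes longer than 4 kb. This held for 33 members. *Gabarap* and *Map1lc3a* were shorter. Over all 10 lists the members held 235 regions with a peak in 2 or more lists, spread over 26 genes. Another annotated transcript start lay near 36 of them, so gene body peaks include peaks at internal starts. Of the 235 regions 20 were listed in all 10 mice, 122 in more control than *Tip60* cKO mice, and 40 in more *Tip60* cKO mice. *Atg7* and *Uvrag* supplied 33 and 32 of the 122, the control lists covered more sequence on average, and the share over all genes was not computed. No region was present in all 5 mice of one genotype and in none of the other. *Uvrag* (58 regions), *Atg7* (42), *Atg10* (30) and *Ambra1* (20), which are among the longest members, held most of them.

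For gene body coverage 28 members were tested, and 18 had a lower mean in *Tip60* cKO (74.2% of all genes). The median difference was -0.26 percentage points in the members (-0.61 without *Tip60* cKO replicate 1, -0.12 without *Tip60* cKO replicate 5) and -0.53 over all 12823 genes. limma called 1 member, *Atg7*, lower (0.351% of all genes, and no gene higher), and 10 of the 28 had an unadjusted p below 0.05 (15.7%). *Atg7* lies on chromosome 6 (chr6:114643097-114860614, plus strand). Peaks covered 9.86, 7.56, 8.24, 7.09 and 4.73 kb of its body in *Tip60* cKO against 17.3, 16.7, 15.2, 12.5 and 18.9 kb in control mice, without overlap. As a percentage of the body this was 3.48 ± 0.867% against 7.49 ± 1.13% (adjusted p 0.0486). The number of peaks was 17 to 24 against 32 to 42. The call was lost in 9 of the 10 fits that left out a mouse, all but that without control replicate 4 (-4.43 to -3.68 percentage points), and with the replicate number as a block, where no gene was called. When each library was reduced to an equal number of peaks, which does not match their length, the difference of *Atg7* went from -4.01 to -2.19 percentage points (adjusted p 0.0270 by limma). Over all genes 108 were called lower and 4 higher of 10753 at this setting.

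Within *Atg7* the peaks that were listed in all 10 mice lay 70.2, 95.7 and 215 kb from the TSS. The strongest, at 95.5 kb, lies 0.071 kb from the start of the processed pseudogene *Gm19040* and had a fold enrichment of 6.18 ± 1.007 in *Tip60* cKO against 7.86 ± 0.463 in control mice. At the RefSeq start shown above, a peak was listed in all 5 control mice (3.05 to 4.77) and in *Tip60* cKO replicate 3 alone (3.47). A region 81.6 kb from the TSS had the same pattern, with 5 control mice and 1 *Tip60* cKO mouse. Of the 42 regions, 33 were listed in more control and 4 in more *Tip60* cKO mice.

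**Figure D5:**
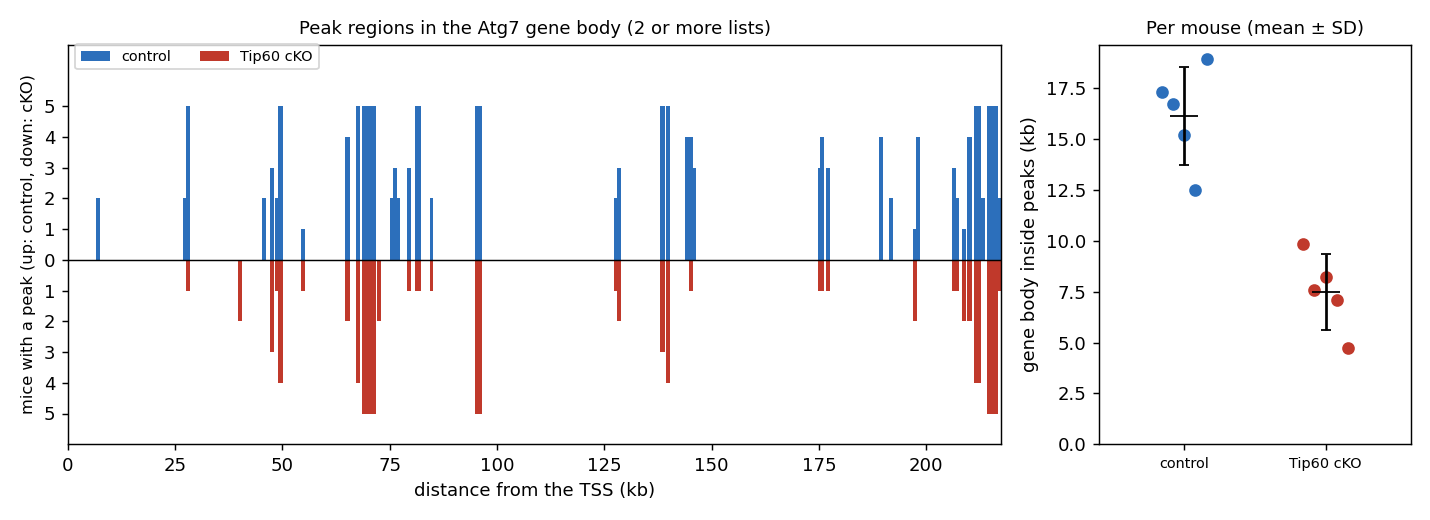
Left, regions of the *Atg7* gene body with a peak in 2 or more lists, placed by distance from the TSS (kb), with the number of control mice (up) and *Tip60* cKO mice (down) that had a peak; narrow regions are drawn at a minimum width. Right, kb of the gene body inside peaks in each mouse with mean ± SD; control mice lie at 12.5 to 18.9 kb and *Tip60* cKO mice at 4.73 to 9.86 kb.

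At 3 other members the mice did not overlap in gene body coverage, all lower in *Tip60* cKO (3.96% of all genes), and at no member with higher values (0.0468%). *Ulk1* had 3.66, 1.49, 3.77, 3.01 and 0% against 4.81, 7.70, 8.29, 6.18 and 5.94% (adjusted p 0.0993 by limma). *Atg2b*, the second lipid transfer protein, had 1.08, 0.827, 1.76, 1.17 and 0% against 1.88, 2.48, 1.82, 1.97 and 2.61% (adjusted p 0.167). *Pik3r4* had 1.79, 4.81, 4.72, 4.53 and 2.55% against 6.57, 4.91, 5.09, 6.03 and 6.85% (adjusted p 0.192). Thus *Pik3r4* had less peak coverage in its body, without a call, together with a higher relative fold enrichment at its TSS. The TSS difference was not called by pileup. In *Ulk1* and *Atg2b* the value of 0 was that of replicate 5, the shallowest library.

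For the gene body rank score limma called 0 of 28 members (0.187% of all genes, with 0.0234% higher), with 3 at an unadjusted p below 0.05, all higher in *Tip60* cKO (10.5% of all genes). The mean was lower at 14 members and at 54.1% of all genes, and the median difference was -0.27 in the members and -0.59 over all genes. The median of the members changed sign without single mice, from -2.41 without control replicate 5 to 1.25 without *Tip60* cKO replicate 2. The mice did not overlap at *Atg4d*, which had higher scores (1.41% of all genes), and at no member with lower scores (1.5%). Its scores were 82.5, 79.2, 90.2, 86.0 and 75.6 in *Tip60* cKO against 63.6, 69.9, 70.9, 66.6 and 65.8 in control mice (adjusted p 0.159). The pileup of this peak was 13 to 24 and 14 to 18, and its input background was 1.013 to 1.13 in *Tip60* cKO against 1.14 to 1.26 in control libraries. Thus *Atg4d* had less coverage at its TSS and a higher-ranked peak in its body, and neither difference was called. *Ambra1*, a regulator of the PI3K complex, scored 84.0 ± 3.89 and 77.6 ± 3.04 (adjusted p 0.415).

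*Rb1cc1* scored 96.5, 90.6, 93.3, 96.8 and 97.3 in *Tip60* cKO against 75.3, 87.9, 87.2, 79.8 and 90.7 in control mice (adjusted p 0.344 by limma). The summit of this peak lay 8.61 kb downstream of the gene start, 0.141 kb from an internal transcript start and 0.489 kb from the TSS of the antisense gene *4732440D04Rik*, which cannot be told apart. When all transcript starts were used, its relative fold enrichment was 0.56 ± 0.14 higher in *Tip60* cKO (log2, SE; adjusted p 0.0199 by limma). Over all genes 120 were called lower and 355 higher of 14022 at this setting. The pileup of the peak was 21 to 33 in *Tip60* cKO against 27 to 40 in control mice. The input background was at the genome-wide level in every *Tip60* cKO library and at 1.25 to 2.02 times it in the control libraries, as at *Atg4c* and *Atg2a*.

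Other genes of the pathway were counted from 7 lists with 132 genes. In relative fold enrichment 9 of 102 tested were called higher (2.78% of all genes) and 1 lower (0.792%). These were 4 of 24 lysosomal hydrolases and membrane proteins, 3 of 27 nutrient sensing genes (and the 1 lower), 1 of 16 selective autophagy genes and 1 of 10 vacuolar ATPase subunits. No call was made among 13 genes of autophagosome-lysosome fusion, 10 other core autophagy genes and 2 MiT/TFE and FOXO factors. In TSS coverage 4 of 125 were called, all lower (1.53% of all genes). With the replicate number as a block these calls were lost, and no gene was called. No gene of these lists was called in gene body rank score or gene body coverage, and their calls in TSS rank score are not given here. By pileup none of the 10 genes called in fold enrichment was called, with adjusted p of 0.0543 to 0.985 by limma.

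*Atp6v0c*, the proton-conducting subunit of the vacuolar ATPase, differed by 0.79 ± 0.14 in relative fold enrichment (adjusted p 0.00128) and by 0.46 ± 0.13 in relative pileup (adjusted p 0.151 by limma). *Mlst8*, an mTORC1 subunit, was lower by fold enrichment (-0.56 ± 0.14; adjusted p 0.0186) and differed by 0.01 ± 0.17 in relative pileup (adjusted p 0.985 by limma).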

How the data were processed

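H4K12ac ChIP-Seq peak lists of 5 *Tip60* cKO and 5 control mice were used, grouped by the genotype in their labels. According to the methods of the study, the authors mapped reads to mm10 with STAR and removed PCR duplicates with samtools. MACS 2.1.0.20140616 then called peaks per library at q < 0.1 against the pooled input of the same genotype. In the files deposited by the authors, pileup is a coverage signal, namely how many fragments overlap the summit. Fold enrichment, as deposited, is a ratio: pileup over the input background, each increased by 1. The authors also deposited −log10 values of each p-value and q-value, of which only q served here, for a stricter peak threshold. The input background was recovered from pileup and fold enrichment. The lists hold no counts per region, so precision rests on the spread between 5 mice, and a missing peak was below the threshold at that depth.

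Genes came from GENCODE M21 (GRCm38, the build mm10), and all 35 members matched 1 entry. The members and lists were chosen with earlier results of these data known. A peak counted with 1 base of overlap. All genes with a peak in at least 2 lists (for relative fold enrichment, in all 10) were compared with limma 3.58.1 in R 4.3.3. Benjamini-Hochberg adjustment ran over all of them. The fits of rank scores and coverages were first tried on simulated data, and that of relative fold enrichment was not. Members named with each mouse's value were those called and those without overlap of the mice in a measure other than pileup. The same holds for those with a TSS peak in fewer than 10 lists and those at unadjusted p below 0.05 for a rank score. Per role, the highest and lowest in control mice were added. As an exception, *Ambra1* passed that p in gene body rank score but is given by mean and SD. *Atg12*, *Atg13* and *Atg5* were named after their pileup values were seen. Alternatives were q < 0.01, the same number of peaks per library (64245), ranking by pileup, windows of 1 kb, all transcript starts, filters of 1 and 5 lists, a robust prior, the replicate number as a block, the sequencing lane, and each mouse left out. Python 3.11.15, numpy 2.4.6 and pandas 2.3.3 were used. Labels and methods differ in strain, sex and kit version, which entered no comparison. The values of 1 gene of the other pathway lists are not reported here.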

Additional observations from a re-analysis of the deposited data

Results flagged for a closer look

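A single mouse stood far from the other 4 of its genotype, by Dixon's test with its 95% critical value, in 5 of 56 groups of values tested, and chance flags about 1 group in 20. Not all groups of values reported here were among the 56. The TSS rank scores of *Ulk2*, where replicate 5 was the lowest in both genotypes, were not. In TSS rank score, *Pik3r4* reached 96.3 in *Tip60* cKO replicate 2, with the others at 74.1 to 80.2. *Atg9b* was 0, without a peak, in *Tip60* cKO replicate 2 (others 74.8 to 86.1) and in control replicate 4 (others 65.4 to 74.2). In gene body rank score, *Ambra1* was 77.2 in *Tip60* cKO replicate 5, the shallowest library, with the others at 85.0 to 87.0. In TSS coverage, *Ulk1* was 23.6% in *Tip60* cKO replicate 1, with the others at 6.37 to 9.998%.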

How the results depend on the processing

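Depth and the pooled inputs limit these results: weak peaks are listed or not with depth, and the 2 inputs have no replicate. Replicate numbers mark different animals, and the deviations of same-numbered mice had a correlation between -0.04 and 0.06. Whether these mice share more than the sequencing lane is not given, and a low correlation cannot decide it. With the replicate block the 4 calls of TSS relative fold enrichment were kept (*Gabarap*, *Atg4c*, *Pik3r4* and *Atg2a*), while gene body coverage had 0 calls in place of 1. TSS coverage had 0 calls among all 21672 genes with this block, against 331 lower and 8 higher without it. With all transcript starts *Gabarap* and *Atg4c* kept their calls and *Rb1cc1* was called, while *Pik3r4* and *Atg2a* lost theirs (adjusted p 0.112 and 0.0954). Relative fold enrichment had 1 call (*Atg4c*) with the same number of peaks per library, and 0 with ranking by pileup, lane 7 only or lane 8 only. It had 1 to 4 calls without single mice, and *Gabarap* was called in all 10 of these fits, by -0.80 to -0.63. Gene body coverage had 0 calls with q < 0.01, lane 7 only, lane 8 only, the robust prior and the filter of 1 list, 2 (*Atg7* and *Uvrag*) with the same number of peaks (108 lower and 4 higher of 10753 genes, against 45 and 0 of 12823), 4 by non-overlap, and 0 to 1 without single mice. TSS coverage had 2 calls with the same number of peaks (*Gabarap* and *Ulk1*; 700 lower and 34 higher of 19377 genes, against 331 and 8 of 21672), 1 with all transcript starts (*Atg7*; 219 and 8 of 22523 genes), 4 by non-overlap and 0 to 4 without single mice, 4 of them without *Tip60* cKO replicate 1. TSS rank score had 1 call in lane 8 only (*Optn*, 79.4 with 2 mice per genotype and -1.26 in lane 7 only; 750 lower and 180 higher calls among 18705 genes), 1 with the robust prior (*Gabarap*; 26 and 60 calls among all genes), 2 by non-overlap and 0 without any single mouse. Gene body rank score had 1 by non-overlap and 0 without any single mouse. The median differences of the members moved by less than 1 SD of the mice in every alternative, although that of gene body rank score changed sign without single mice (-2.41 to 1.25). *Gabarap*, *Atg4c*, *Pik3r4* and *Atg2a* in fold enrichment and *Atg7* in gene body coverage kept their sign wherever they were tested. *Gabarap*, *Pik3r4* and *Atg2a* were not tested for fold enrichment with the same number of peaks, since they then lacked a peak in some list. Over all genes, fold enrichment called 38 lower and 112 higher in lane 7 only, and 7 and 21 in lane 8 only, against 103 and 361. The causes were not tested.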
